A study of Saccharomyces cerevisiae with 16 samples.

Results

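The comparison set the 3 libraries taken 150, 165 and 180 min after removal of phosphate against the 3 taken at 90, 105 and 120 min, in a budding yeast (Saccharomyces cerevisiae) culture labelled Δphm4. The 6 libraries were defined by their time labels, out of 16 in the series. The windows were chosen with earlier results of these data known, so the choice was not blind to the values. Of the table's 6648 genes, 4863 had a value in all 6 libraries. The strain is of the BY4741 background, an auxotrophic laboratory haploid, and carries a YFP reporter under the PHO84 promoter; PHO84 encodes the phosphate transporter of high affinity. PHM4 is VTC1, which encodes part of the polyphosphate polymerase of the vacuole membrane; polyphosphate is the phosphate reserve of yeast. The labels give the deletion and the reporter to every library, including the one at 0 min from high phosphate medium, so the comparison is one of time and not of the deletion. Cells were washed, moved to medium without phosphate and sampled every 15 min, with 1 library per time point. Successive libraries of 1 culture therefore stand in for replicates, and the p-values below measure only the spread among neighbouring time points. With 3 against 3, an exact permutation test of a single gene cannot go below a p of 0.1.

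Budding yeast answers a shortage of phosphate on more than 1 level. The PHO pathway, through the transcription factor Pho4, induces transporters, phosphatases and polyphosphate enzymes when phosphate runs short. Independently of the kind of nutrient, slow growth and stress lower the activity of protein kinase A and TORC1. The transcription factors Msn2 and Msn4 then enter the nucleus and induce general stress genes through the stress response element, while the repressors Dot6, Tod6 and Stb3 shut down ribosome biogenesis genes and the Sfp1 and Ifh1 activators leave ribosomal protein genes. Transcripts of these programmes move in opposite directions in most stresses of yeast.

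Levels are given as CPM, reads per 1000000 listed reads, and differences as log2 of the later over the earlier level. In the 6 libraries the listed genes held 2280486, 1768232 and 1259214 reads at 90, 105 and 120 min, and 1897079, 1001079 and 766529 reads at 150, 165 and 180 min. The lowest listed level was accordingly 4.39 to 7.94 CPM in the earlier and 5.27 to 13 CPM in the later libraries. VTC1 (YER072W, chromosome V, 302806 to 303195), labelled as deleted, was nevertheless listed in all 6 libraries, at 117, 135 and 159 CPM in the earlier and 140, 156 and 183 CPM in the later ones. It was also listed at 102 CPM at 0 min and, in the shallow libraries labelled 195 and 210 min, at 1781 and 1911 CPM. Listed reads of a gene labelled as deleted are not explained in the sources used here, and their origin was not tested. The strain is named here as labelled. The libraries labelled 195 and 210 min held 40984 and 45009 reads and listed 1122 and 1188 genes, none under 244 and 222 CPM. Of the auxotrophic markers of BY4741, HIS3, LEU2 and MET17 were listed in none of the 6 libraries and URA3 at 90 and 180 min only, at 7.89 and 15.7 CPM. All 6 markers of the MATa mating type were listed throughout. Markers of other cell types made up 0.0185% to 0.0225% of the listed reads in the earlier and 0.0202% to 0.0300% in the later libraries.

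Between the windows 784 genes rose and 659 fell at a limma adjusted p under 0.05, which is 16.1% and 13.6% of the genes tested. The median rise among genes called higher was 1.94-fold, and the median fall among genes called lower 2.49-fold. Among genes with a value in all 6 libraries, 11 rose by at least 8-fold and 0 fell as far, whereas 357 rose and 435 fell by at least 2-fold. A fall of 8-fold could be seen only in genes well above the lowest listed level, which was 13 CPM at 180 min. How far this limit shaped the difference was not tested. Without any variance model, 350 genes (7.2%) had all later values above all earlier ones with a mean difference of at least 1 (log2), and 430 (8.84%) the reverse. The number called higher depended on single libraries, being 449 without the 105 min library and 490 without the 165 min library, and the number called lower was then 481 and 514. The median over all genes tested was 0.11 higher (log2) in the later window, so differences are to be read against that shift. The typical gene differed by 0.229 to 0.371 (median absolute log2 difference) between libraries of the same window. Between libraries of different windows it differed by 0.373 to 0.536. Libraries of different windows also lie further apart in time. At an equal gap the value was 0.373 for 120 against 150 min, between windows. Within windows it was 0.295 for 90 against 120 min and 0.371 for 150 against 180 min. Because these are bulk samples, a lower level cannot be told apart from fewer cells of a kind that expresses the gene.

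**Figure D1:**
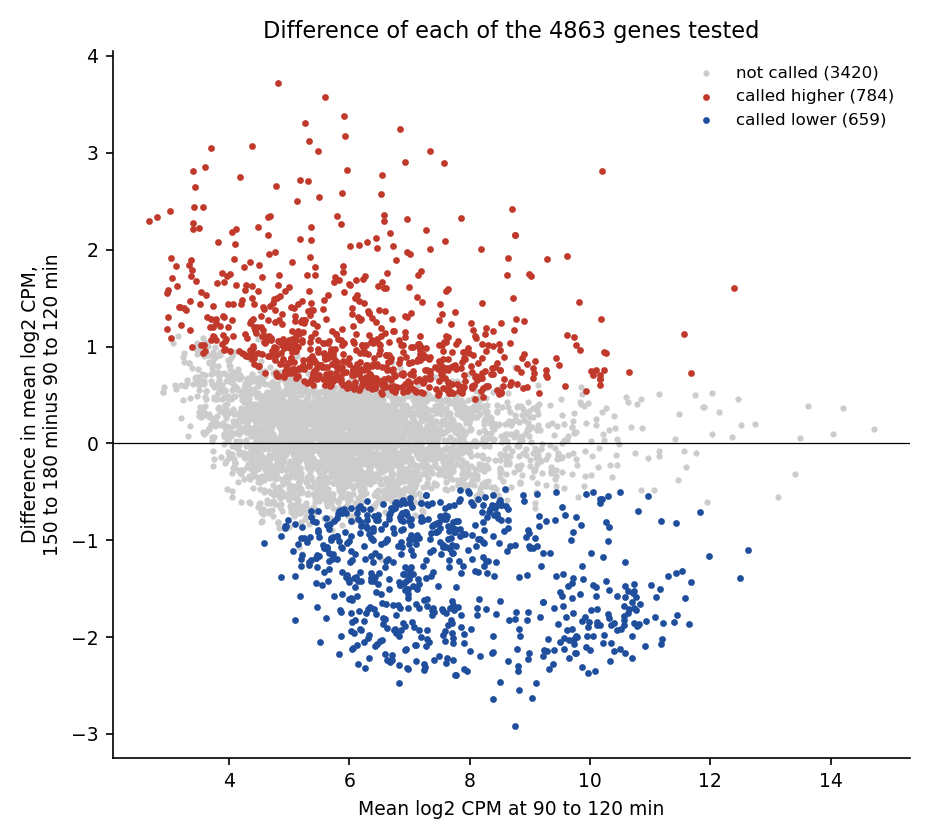
Difference of each of the 4863 genes tested (vertical axis, mean log2 CPM at 150 to 180 min minus that at 90 to 120 min) against its mean log2 CPM at 90 to 120 min (horizontal axis), with 784 genes called higher in red, 659 called lower in blue and the others in grey. Genes called lower include a group at high levels, while the rises beyond 3 (log2) come from low and intermediate levels; a gene near the lowest listed level cannot appear as lower.

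General stress genes rose in every case that could be tested. The list holds genes known to be induced in most adverse conditions, and 43 of its 48 members had a value in all 6 libraries. All 43 rose, with a median difference of 2.21 and a range of 0.66 to 3.38, beside a median of 0.11 and 16.1% called higher over all genes tested. In 42 of them the windows did not overlap and differed by at least 1 (log2). Together they took 1.42%, 1.11% and 1.5% of the listed reads at 90, 105 and 120 min and 4.39%, 5.85% and 5.34% at 150, 165 and 180 min. At 225 min, outside the comparison, the share was 5.26%, and in the shallow libraries labelled 195 and 210 min it was 2.96% and 2.70%.

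SIP18 (YMR175W, chromosome XIII, 611016 to 611255), a hydrophilic protein gene linked to tolerance of drying, stood at 62.3, 58.3 and 60.4 CPM in the earlier libraries and at 200, 925 and 1328 CPM in the later ones. It was level from 90 to 120 min, after 137 CPM at 60 min, and its later values lay far apart. It rose by 3.38 ± 0.49 (SE; limma adjusted p = 0.00025). The neighbouring YMR175W-A (611314 to 611508) showed 45.8 to 50 CPM and then 179, 872 and 1226 CPM. The pair lies on the same strand, and the coordinates do not overlap. Whether reads of a transcript of SIP18 were counted for its neighbour, or the reverse, was not tested. SIP18 and YMR175W-A are therefore not to be read as independent. HSP26 (chromosome II, 382030 to 382674), a small heat shock protein that holds unfolded proteins, went from 277, 155 and 162 CPM to 962, 1654 and 1790 CPM, a rise of 2.89 ± 0.27 (limma adjusted p = 1.25e-05). FMP16, a mitochondrial protein gene on chromosome IV, had 42.1, 30 and 44.5 CPM before and 297, 407 and 449 CPM after, a 9.88-fold rise. CTT1, the cytosolic catalase that breaks down hydrogen peroxide, rose 5.66-fold and HSP42, another small heat shock protein, 5.13-fold. In each of these genes the lowest later value lay above the highest earlier one.

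The largest rise in the comparison was that of YNR034W-A (EGO4, chromosome XIV, 692561 to 692857), a gene of a small protein. It was at 25, 25.7 and 34.1 CPM in the earlier window and at 318, 526 and 301 CPM in the later one, a 13.2-fold rise (log2 3.72 ± 0.24, limma adjusted p = 3.81e-06). RTN2, a reticulon-like gene of the endoplasmic reticulum, rose 8.38-fold from 15.3, 18.7 and 31.8 CPM to 164, 187 and 175 CPM. SPG4, named for survival in stationary phase, went from 18.9, 12.4 and 9.53 CPM to 55.3, 149 and 153 CPM. RGI1, known for its part in energy metabolism on non-fermentable carbon, went from 52.6, 52 and 81.8 CPM to 715, 645 and 357 CPM. Its later values fell with time, unlike those of SIP18 and SPG4. MSC1 rose 8.12-fold, from 173, 111 and 226 CPM to 1150, 1469 and 1378 CPM.

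The stress response element, the site of Msn2 and Msn4, was searched for as AGGGG on either strand in the 300 bases before the start codon. At least 1 match was found in 49.7% of 761 promoters of genes called higher, in 12.5% of 650 of genes called lower, in 19.1% of 3338 of genes not called and in 23.1% of all 4749. Of the 43 general stress genes 83.7% held it. With 500 bases, a window chosen after seeing the data, the shares were 63.7%, 24.9% and 30.3% for the called higher, called lower and uncalled genes. The promoters of RGI1, MSC1 and CYC7 are shown because they belong to genes among the 12 largest rises that hold more than 1 match. The 300 bases before each start codon were read from the R64 reference, with RGI1 at chrV:291766-292065 on the plus strand, MSC1 at chrXIII:16677-16976 on the minus strand and CYC7 at chrV:79978-80277 on the minus strand. They are written 5′ to 3′ along the gene, with matches to AGGGG in capitals.
RGI1: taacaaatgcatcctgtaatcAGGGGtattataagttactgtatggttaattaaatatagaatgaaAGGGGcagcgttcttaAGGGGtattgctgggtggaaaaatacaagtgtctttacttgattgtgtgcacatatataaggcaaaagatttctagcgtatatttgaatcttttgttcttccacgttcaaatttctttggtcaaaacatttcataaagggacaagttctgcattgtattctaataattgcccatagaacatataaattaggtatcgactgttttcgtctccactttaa
MSC1: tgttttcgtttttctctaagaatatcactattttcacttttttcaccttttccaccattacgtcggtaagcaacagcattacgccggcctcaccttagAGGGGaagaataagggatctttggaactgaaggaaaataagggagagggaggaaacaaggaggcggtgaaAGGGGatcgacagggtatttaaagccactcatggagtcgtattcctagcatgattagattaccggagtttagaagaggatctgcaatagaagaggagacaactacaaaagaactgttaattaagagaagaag
CYC7: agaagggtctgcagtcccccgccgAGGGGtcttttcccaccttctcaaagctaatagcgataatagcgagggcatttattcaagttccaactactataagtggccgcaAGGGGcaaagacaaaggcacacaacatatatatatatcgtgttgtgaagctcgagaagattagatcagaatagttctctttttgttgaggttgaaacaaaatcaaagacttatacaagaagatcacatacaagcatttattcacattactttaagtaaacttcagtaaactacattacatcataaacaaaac
In these 3 promoters the matches began between 132 and 279 bases before the start codon, and all were on the coding strand. Among the other large rises PGM2 held 2 matches and YNR034W-A, FMP16 and RTN2 held 1 each, while SIP18, GPH1 and SPG4 had none in this window. A match describes the letters and does not show that a factor binds there.

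**Figure D2:**
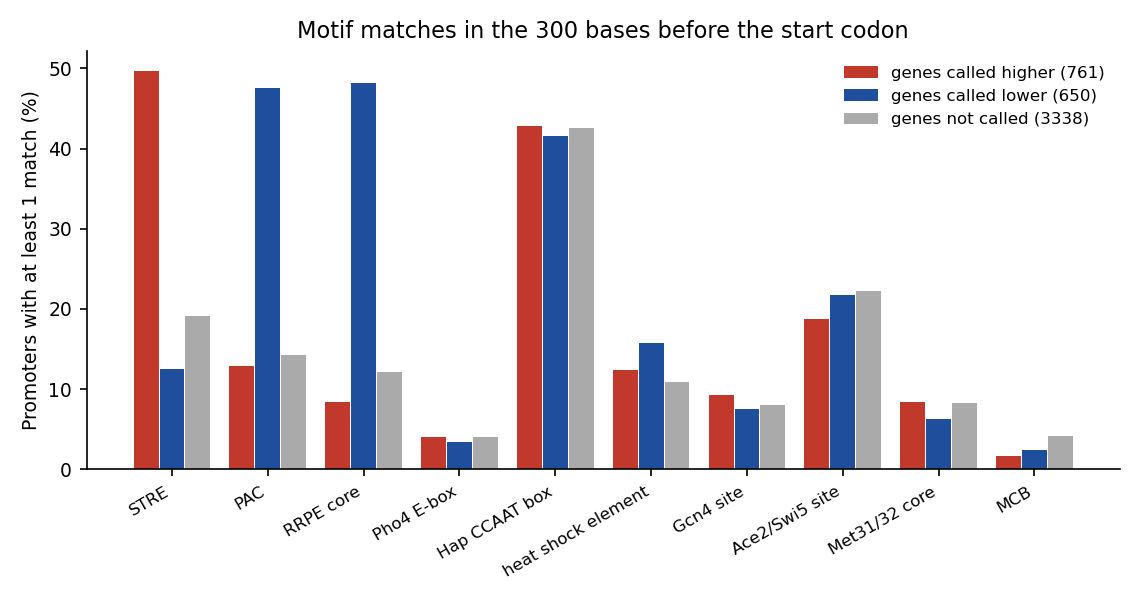
Share of promoters (%, vertical axis) with at least 1 match to each of 10 motifs in the 300 bases before the start codon, for the 761 genes called higher, the 650 called lower and the 3338 not called. The stress response element (STRE) stands at 49.7% among genes called higher, and the PAC and RRPE motifs at 47.5% and 48.2% among genes called lower. The bars of the Pho4 E-box differ little in this window, at 4.07%, 3.38% and 3.98%. With 500 bases, not drawn, its shares were 8.28%, 4.92% and 6.56%. Of the promoters of 17 Pho4 targets 41.2% held it within 300 bases and 76.5% within 500.

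Storage carbohydrate genes rose with the stress genes. Trehalose and glycogen are the reserve sugars of yeast. Of 18 genes of their synthesis and breakdown 16 rose (median 1.73), beside the 16.1% of all genes. GPH1 (YPR160W, chromosome XVI, 861306 to 864014), the glycogen phosphorylase that releases glucose from glycogen, was at 99.1, 92.2 and 164 CPM in the earlier and at 1125, 1309 and 866 CPM in the later libraries, a rise of 3.25 ± 0.23 (limma adjusted p = 5.77e-06). PGM2, the major phosphoglucomutase, rose 7.51-fold from 101, 89.6 and 201 CPM to 1094, 968 and 731 CPM. GLC3, the glycogen branching enzyme, rose 5.98-fold. Genes of synthesis and breakdown thus rose together. Levels were highest at the start of the later window: 15 of the 18 genes were lower at 180 than at 150 min, with a median step of -0.70. TPS1, the trehalose-6-phosphate synthase gene, had 758, 395 and 260 CPM after 183, 158 and 275 CPM, so its last value lay within the earlier range.

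Carbon and energy genes showed rises of intermediate size. Counts called higher are to be read against the 16.1% of all genes. In oxidative phosphorylation 22 of 35 genes rose and 0 fell, with a median of 0.73, and 13 were called without the 105 min or without the 165 min library. CYC7, the cytochrome c isoform of low oxygen and stress, was far above the others of this list, at 32, 30 and 91.3 CPM and then at 322, 412 and 351 CPM, an 8.09-fold rise. INH1, an inhibitor of the mitochondrial ATP synthase running in reverse, rose 3.05-fold and COX5B, the hypoxic form of a cytochrome oxidase subunit, 2.37-fold. In the TCA cycle 8 of 18 genes rose. Mitochondrial ribosomal protein genes, in contrast to those of the cytosol, gave 6 of 65 higher and 0 lower, below the 16.1% of all genes; without the 150 min library 23 were called higher, and without any other of the 6 libraries 1 or 2.

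Among genes of sugar uptake and entry 4 of 14 rose, beside the 16.1% of all genes. HXT1 alone fell, a call that ended in 9 of 17 refits. HXT7, a high-affinity hexose transporter induced at low glucose, was at 16.6, 15.3 and 23.7 CPM and then at 121, 162 and 93.4 CPM, a 6.72-fold rise; reads may be shared with its near-identical copy HXT6. HXK1, a hexokinase repressed by glucose, rose 4.44-fold and GLK1, the glucokinase, 3.02-fold. HXT1, the low-affinity transporter of high glucose, had 164, 128 and 111 CPM and then 65.4, 80.9 and 112 CPM. Of glucose-repressed genes of other carbon sources 7 of 18 rose, and 4 without the library of 90, of 105 or of 180 min. ALD4, the mitochondrial acetaldehyde dehydrogenase, rose 4.24-fold, and its cytosolic relative ALD3 rose 6.31-fold in a list where 8 of 18 dehydrogenase genes rose. In glycolysis 5 of 23 genes rose, near the 16.1% of all genes, with the largest rises in ENO1 (3.84-fold) and TDH1 (3.75-fold), minor isoforms of enolase and glyceraldehyde-3-phosphate dehydrogenase whose reads may be shared with close copies.

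Genes of degradation and recycling formed a further group. Their counts called higher are to be read against the 16.1% of all genes. Of vacuolar hydrolases and their inhibitors 12 of 15 rose (median 0.92). PAI3, the cytoplasmic inhibitor of the vacuolar proteinase A, was at 98.7, 83.7 and 97.7 CPM and then at 397, 793 and 819 CPM, a 6.84-fold rise, and TFS1, the inhibitor of carboxypeptidase Y, rose 4.52-fold. AMS1, the vacuolar alpha-mannosidase, rose 3.34-fold. In autophagy 9 of 21 genes rose, and 5 without the 105 min library. ATG8 (chromosome II, 80378 to 80731), the ubiquitin-like protein that is joined to lipid on the autophagosome, was at 46, 30.5 and 49.2 CPM and then at 161, 224 and 198 CPM, a rise of 2.23 ± 0.23 (limma adjusted p = 2.13e-05). In the proteasome list 17 of 36 rose, but 4 without the library of 105 or 165 min, 9 without that of 120 min, 7 without that of 180 min and 10 without the mean-variance trend of the test. Its largest rise was that of UBI4, the stress-inducible polyubiquitin gene, which had 494, 444 and 589 CPM and then 1289, 1967 and 1924 CPM. The vacuolar proton pump, by contrast, gave 0 calls in 18 genes at an adjusted p under 0.05, with differences between -0.24 and 0.38.

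Nitrogen-related genes changed as well. Of genes under nitrogen catabolite repression 10 of 24 rose and 0 fell (median 0.68), beside the 16.1% and 13.6% of all genes. GAP1, the general amino acid permease, was at 164, 89.9 and 146 CPM and then at 403, 490 and 642 CPM (3.89-fold). PUT4, the proline permease, rose 4.85-fold from 8.77, 11.3 and 11.9 CPM to 49, 48.9 and 56.1 CPM, and UGA2, an enzyme of gamma-aminobutyrate use, rose 3.17-fold. Over all amino acid permeases 5 of 21 rose and 3 fell, the falls near the 13.6% of all genes, with 1 fall without the library of 90, 105 or 165 min and 3 rises with the filter on low values. TAT1, a permease of valine, leucine and tyrosine, fell 2.29-fold, from 97.3, 107 and 95.3 CPM to 39, 52.9 and 40.4 CPM.

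Of genes of the signalling that controls the stress response 8 of 25 rose, 5 without the 165 min library, and 1 fell. Over all genes tested 16.1% were called higher and 13.6% lower. MSN4 (chromosome XI, 323228 to 325120), the stress-inducible one of the Msn2 and Msn4 pair, had 11.4, 11.3 and 10.3 CPM and then 23.7, 43 and 43.1 CPM, a rise of 1.68 ± 0.32 (limma adjusted p = 0.00163). MSN2 was listed in only 4 of the 6 libraries, between 10.5 and 15.3 CPM, and was not tested. RAS1, an activator of adenylate cyclase, fell 2.31-fold, a call that ended in 2 of 16 refits.

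**Figure D3:**
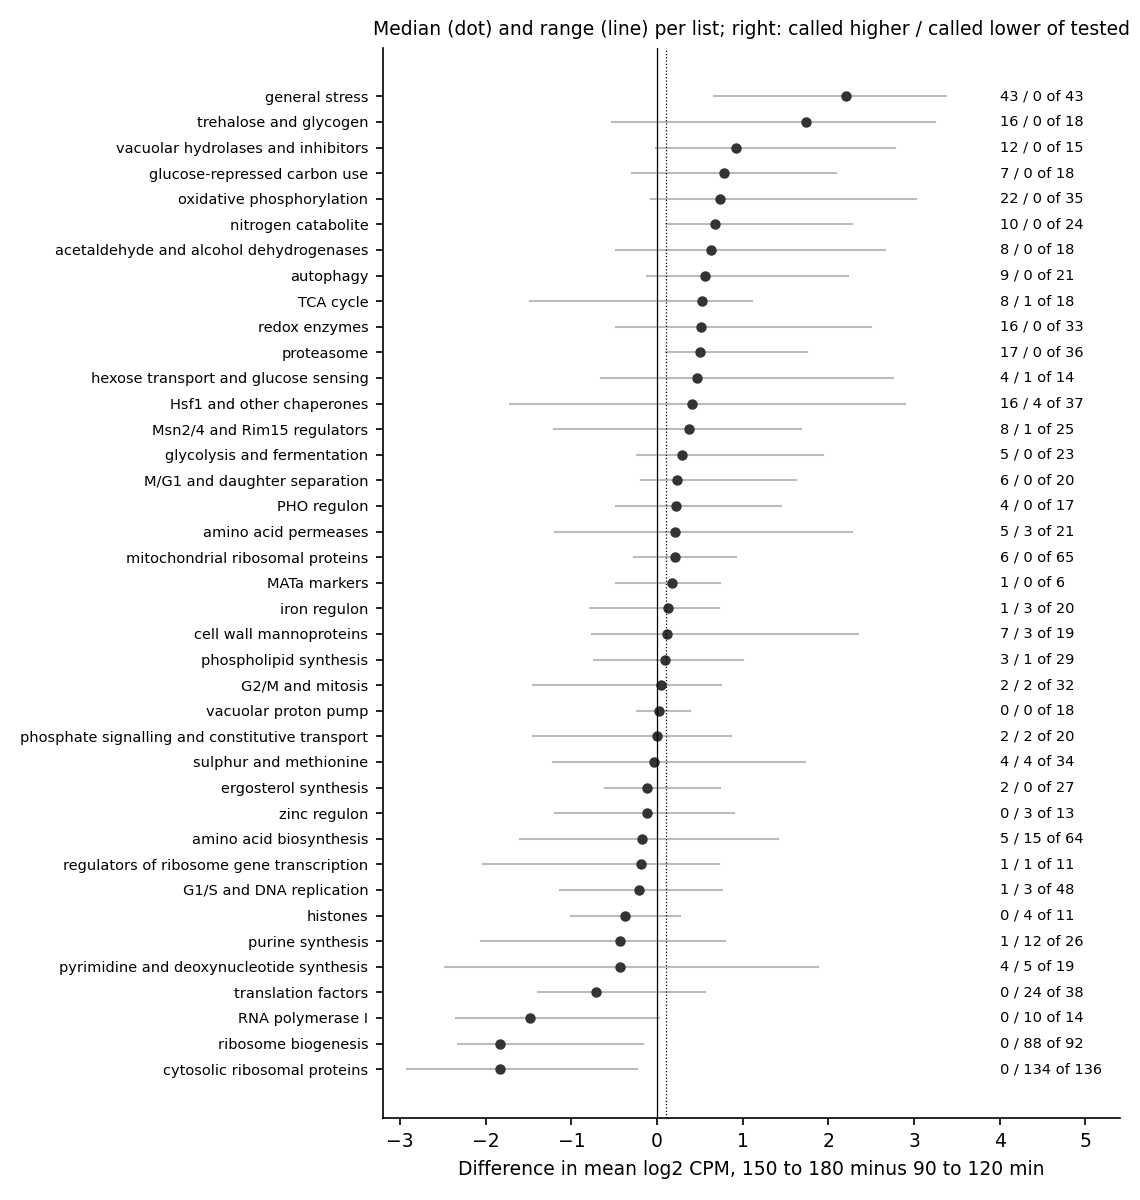
Median (dot) and range (line) of the difference in mean log2 CPM, 150 to 180 minus 90 to 120 min, for each list with at least 6 genes tested, sorted by median. Figures at the right give the genes called higher and called lower of those tested, and the dotted line marks the median of all genes tested (0.11); general stress lies at the top with 43 of 43 called higher and cytosolic ribosomal proteins at the bottom with 134 of 136 called lower.

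Nearly all genes of the cytosolic ribosome fell. Of cytosolic ribosomal protein genes 134 of 136 fell and 0 rose, with a median of -1.84, beside 13.6% called lower over all genes tested. Their share of the listed reads was 13.4%, 21% and 20.5% at 90, 105 and 120 min and 8.80%, 5.78% and 4.96% at 150, 165 and 180 min. The largest fall was that of RPS14B (YJL191W, chromosome X, 73787 to 74611), a protein of the small subunit, from 349, 617 and 371 CPM to 69, 36.2 and 74.5 CPM, or 7.54-fold (log2 -2.92 ± 0.29, limma adjusted p = 1.59e-05). RPL7B, of the large subunit, fell 6.22-fold from 283, 384 and 345 CPM to 65.2, 55.3 and 43 CPM. RPS9A fell 6.17-fold, RPS24B 5.82-fold and RPL27B 5.56-fold. Most ribosomal protein genes of yeast exist as near-identical pairs. Where reads match both copies, the level of a single copy is uncertain, and the treatment of such reads is not given in the sources used here.

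Genes that build ribosomes fell as well. In ribosome biogenesis 88 of 92 fell and 0 rose (median -1.83), beside the 13.6% called lower over all genes. In 81 of them the windows did not overlap with a mean difference of at least 1 (log2). NSR1 (YGR159C, chromosome VII, 806412 to 807656), the yeast nucleolin, was at 364, 240 and 159 CPM and then at 33.2, 46 and 71.8 CPM, a fall of 5.02-fold (log2 -2.33 ± 0.31, limma adjusted p = 0.000136). Its levels declined within the earlier window and climbed within the later one. ERB1, a factor of large subunit maturation, fell from 107, 78.6 and 53.2 CPM to 15.3, 12 and 19.6 CPM. RRS1 fell 4.87-fold. RRB1, which escorts the ribosomal protein Rpl3 to the nucleolus and is not on this list, fell 5.25-fold.

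Of the genes of RNA polymerase I, which transcribes ribosomal RNA, and of its factors, 10 of 14 fell and 0 rose (median -1.48). Over all genes 13.6% were called lower and 16.1% higher. RPA190 (YOR341W, chromosome XV, 960987 to 965981), the largest subunit of RNA polymerase I, was at 298, 285 and 180 CPM and then at 47.4, 41 and 60 CPM. The fall was 5.08-fold (log2 -2.35 ± 0.23, limma adjusted p = 1.72e-05). RPA135, the second-largest subunit, fell from 188, 163 and 118 CPM to 34.8, 26 and 32.6 CPM, and RPA43 fell 4.70-fold. Translation factors followed with smaller differences, 24 of 38 lower and 0 higher at a median of -0.71. YEF3, the fungal elongation factor 3, had 5202, 6100 and 6091 CPM and then 3407, 1743 and 1794 CPM. In the chaperone list 16 of 37 genes rose and 4 fell. SSB1, the Hsp70 chaperone that sits on the ribosome, fell 3.28-fold from 945, 1193 and 1236 CPM to 676, 247 and 238 CPM, and its reads may be shared with the close copy SSB2. The falls in that list numbered 2 without the library of 105, 120 or 180 min, under quantile normalization or without the mean-variance trend, and 1 without the 165 min library. SSA4, a heat-inducible Hsp70, rose 4.13-fold.

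The PAC motif, bound by Dot6 and Tod6, was searched for as GATGAG and the core of the RRPE motif, bound by Stb3, as AAATTTTT, both on either strand. PAC was found in 47.5% of promoters of genes called lower, 12.9% of those called higher and 18.6% of all, and the RRPE core in 48.2%, 8.41% and 16.4%. Among ribosome biogenesis genes 90.1% held PAC and 87.9% the RRPE core. In ribosomal protein genes the shares were 11.8% and 13.2%. The promoters of NSR1, RPA135 and ERB1 are shown as examples that were picked by name, without a rule, and each holds both motifs. They lie on the minus strand of R64 at chrVII:807657-807956, chrXVI:581197-581496 and chrXIII:370518-370817. Both motifs are in capitals, and each may read as its reverse complement (CTCATC or AAAAATTT).
NSR1: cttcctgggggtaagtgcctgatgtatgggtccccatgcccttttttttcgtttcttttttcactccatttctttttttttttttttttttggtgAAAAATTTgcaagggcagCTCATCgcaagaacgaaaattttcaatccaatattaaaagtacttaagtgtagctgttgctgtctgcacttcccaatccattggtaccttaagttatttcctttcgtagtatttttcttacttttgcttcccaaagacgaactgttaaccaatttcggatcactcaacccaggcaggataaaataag
RPA135: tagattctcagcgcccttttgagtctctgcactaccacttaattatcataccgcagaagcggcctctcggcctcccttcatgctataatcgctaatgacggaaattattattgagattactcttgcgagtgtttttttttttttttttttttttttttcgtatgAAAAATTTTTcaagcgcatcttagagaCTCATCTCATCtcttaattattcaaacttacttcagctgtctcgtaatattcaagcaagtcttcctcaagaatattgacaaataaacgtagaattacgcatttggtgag
ERB1: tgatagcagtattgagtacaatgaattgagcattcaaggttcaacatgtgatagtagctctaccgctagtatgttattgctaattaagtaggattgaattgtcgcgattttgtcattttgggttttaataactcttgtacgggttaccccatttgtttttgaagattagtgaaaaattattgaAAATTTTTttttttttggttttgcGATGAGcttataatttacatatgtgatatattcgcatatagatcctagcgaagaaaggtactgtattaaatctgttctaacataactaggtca
In NSR1 the RRPE core began 205 and PAC 187 bases before the start codon, in ERB1 117 and 93 bases. RPA135 held overlapping matches, RRPE cores from 136 and 134 and PAC from 109 and 104 bases, so that each run of capitals covers 2 matches. In these 3 picked promoters the RRPE core lay upstream of PAC, and the order in other promoters was not counted. TOD6 itself was listed at 42.5, 19.8 and 13.5 CPM in the earlier libraries and in none of the later ones, whose lowest listed levels were 5.27, 9.99 and 13 CPM, whereas STB3 rose 1.65-fold.

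Nucleotide synthesis held smaller groups of falls. Of purine genes 12 of 26 fell and 1, ADE17, rose, beside the 13.6% and 16.1% of all genes. The windows of ADE17 overlapped, and its call ended in 5 of 17 refits, with adjusted p-values of limma up to 0.119. AAH1, the adenine deaminase of rapidly growing cells, had 178, 221 and 106 CPM and then 17.9, 45 and 71.8 CPM, a fall of 4.16-fold. GUA1 and IMD4, of guanine nucleotide synthesis, fell 3.38-fold and 3.09-fold. Of pyrimidine genes 5 of 19 fell and 4 rose, against 8 lower after centring of the libraries on their median genes and 2 higher without the 105 min library. URA7 (chromosome II, 143989 to 145728), the major CTP synthase, fell from 151, 119 and 81 CPM to 19, 18 and 24.8 CPM, the largest fall outside the ribosomal protein genes among the genes called (5.56-fold; log2 -2.47 ± 0.26, limma adjusted p = 2.91e-05), while URA10, a minor isozyme of the pyrimidine pathway, rose 3.66-fold. HUG1, an inhibitor of ribonucleotide reductase known from DNA damage, went from 61.4, 57.7 and 61.9 CPM to 99.6, 251 and 224 CPM.

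The phosphate regulon itself showed little of this change. Of 17 targets of Pho4 with values in all 6 libraries 4 rose and 0 fell, 23.5% beside the 16.1% of all genes, with a median of 0.215. PHO84 was at 1570, 1318 and 1414 CPM and then at 1372, 1404 and 1509 CPM, a difference of -0.003 ± 0.172 (limma adjusted p = 0.992). PHO5, the secreted acid phosphatase, had 4012, 4219 and 5441 CPM and then 5774, 5550 and 5577 CPM (0.32 ± 0.21, limma adjusted p = 0.282). VTC3 and VTC4, further subunits of the polyphosphate complex, differed by -0.48 ± 0.17 and -0.35 ± 0.19 (limma adjusted p = 0.0531 and 0.182). The list took 2.13%, 2.06% and 2.36% of the listed reads and then 2.28%, 2.49% and 2.51%. A p above the threshold does not show that these levels were equal.

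The 4 members that rose were PHM8, GIT1, PHM6 and PPN1. PHM8 (chromosome V, 225889 to 226854), a phosphatase that releases phosphate from nucleotides and lysophosphatidic acid, had 287, 253 and 353 CPM and then 565, 859 and 1075 CPM, a rise of 1.45 ± 0.23 (limma adjusted p = 0.000452). GIT1, the transporter of glycerophosphoinositol, was the other member whose windows did not overlap and differed by at least 1 (log2), at 17.1, 13 and 21.4 CPM and then 31.6, 33 and 45.7 CPM. PHM6 rose 1.93-fold, but its 150 min value of 1553 CPM lay just under its 120 min value of 1560 CPM. PPN1, an enzyme that cuts polyphosphate chains, rose by 0.60 ± 0.18. The calls of GIT1 and PHM6 ended in 2 of 16 and 4 of 17 refits. Without the 105 min or the 180 min library 1 of the 17 genes was called higher, and without the 165 min library 2. Over all refits that left out a library, 1 to 6 were called higher and 0 to 2 lower. PHM7 was listed in no earlier library and at 15.8, 20 and 20.9 CPM in the later ones. Outside the Pho4 targets, PHO3, the constitutive acid phosphatase, fell 2.74-fold from 70.7, 96.1 and 105 CPM to 27.9, 32.2 and 38.5 CPM.

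**Figure D4:**
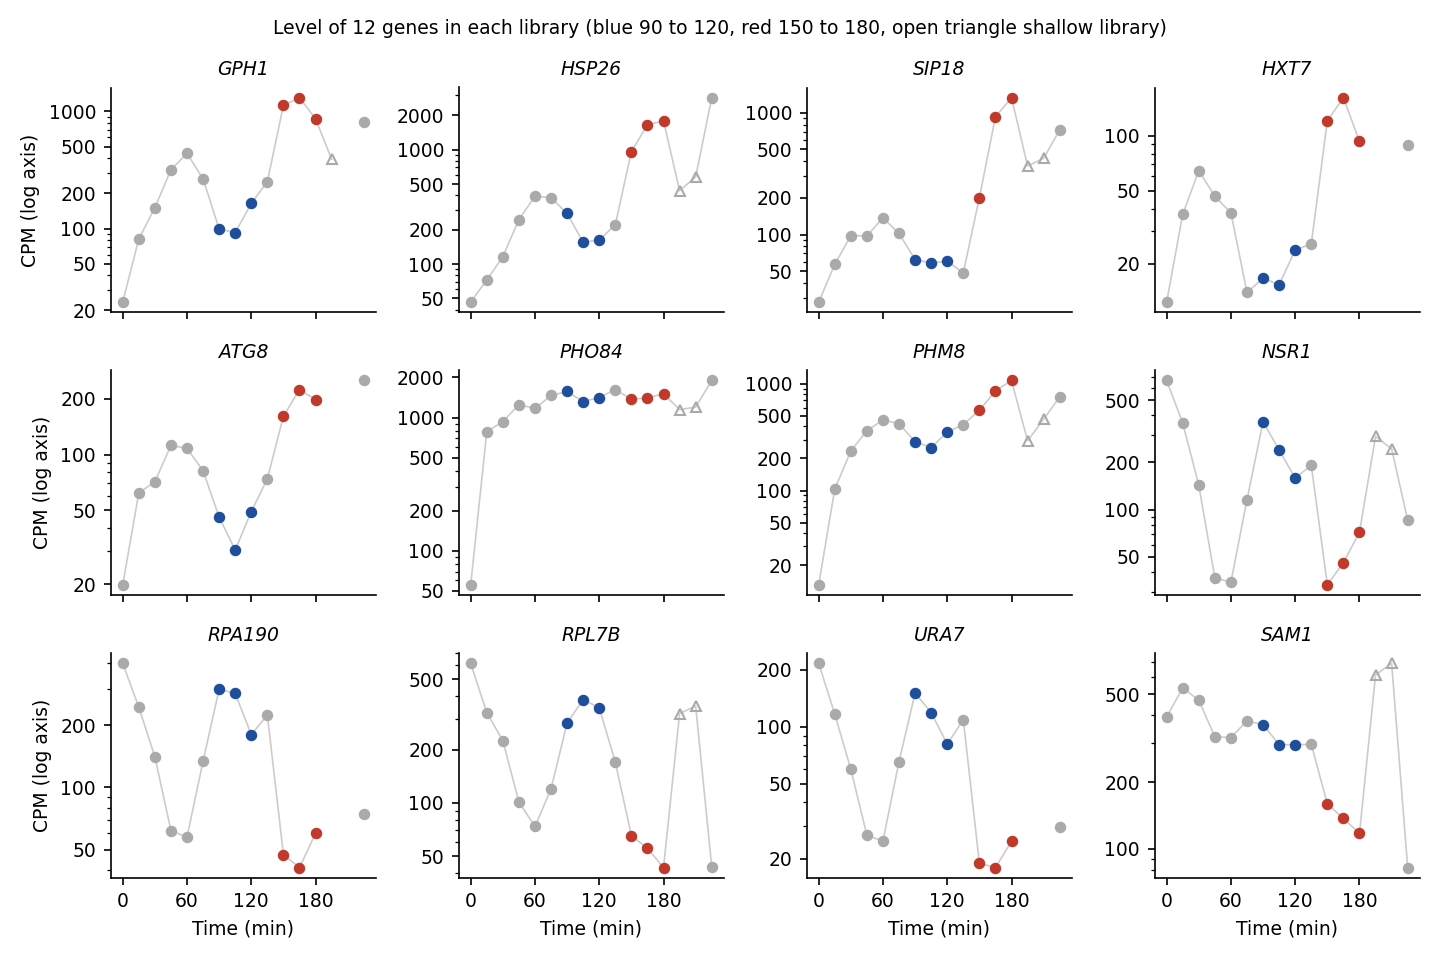
Level (CPM, log axis) of 12 genes in each library against time after transfer (min); blue points are the 3 earlier libraries, red points the 3 later ones, grey points libraries outside the comparison and open triangles the shallow libraries labelled 195 and 210 min. GPH1, HSP26, SIP18, HXT7 and ATG8 have all red points above the blue ones, NSR1, RPA190, RPL7B, URA7 and SAM1 all below, and PHO84 has both at 1318 to 1570 CPM.

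Few calls came from the G1/S and G2/M lists, and larger shares from histone and M/G1 genes. Histone genes fell in 4 of 11 cases, beside the 13.6% of all genes. These falls numbered 2 without the library of 105, 120 or 180 min or without the mean-variance trend. They numbered 1 without that of 165 min or under quantile normalization. HTB2 fell 2.02-fold from 1296, 1360 and 1130 CPM to 729, 610 and 547 CPM. Of G1/S and replication genes 3 of 48 fell and 1 rose, but 9 were called lower after centring, 8 under quantile normalization, 10 without the 120 min library, 5 without that of 150 or 180 min and 1 without that of 90 or 105 min. G2/M genes gave 2 rises and 2 falls of 32, below the 16.1% and 13.6% of all genes. Their rises numbered 0 without the 105 min library, 1 without that of 90, 165 or 180 min and 4 without that of 150 min, and their falls 1 without that of 90, 105, 165 or 180 min. The falls were those of PHO3, the acid phosphatase gene named above, which is on both lists, and of CDC14. The call of CDC14 ended in 4 of 16 refits. Of M/G1 genes 6 of 20 rose, beside the 16.1% of all genes, and 4 to 6 over the refits that left out a library. The rises included RME1, a repressor of meiosis that also acts on G1 cyclins, from 39.5, 27.7 and 30.2 CPM to 81.7, 124 and 93.9 CPM. SIC1, the inhibitor of B-type cyclin kinase, rose 2.02-fold. In cell wall genes 7 of 19 rose and 3 fell, the falls near the share of all genes and numbering 1 without the library of 90, 105, 165 or 180 min. HPF1, a mannoprotein, went from 182, 212 and 326 CPM to 970, 1213 and 1364 CPM.

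Sulphur metabolism gave 4 rises and 4 falls of 34 genes, below the 16.1% and 13.6% of all genes. Without the 90 or the 165 min library 2 falls were called, and the rises numbered 1 without the 90 min library and 2 without that of 105 or 165 min, under either other scaling, with the filter on low values or with the 225 min library added. SAM1, a synthetase of S-adenosylmethionine, fell 2.32-fold from 364, 295 and 295 CPM to 159, 137 and 117 CPM, while MET28, an activator of sulphur genes, rose 3.31-fold. Of amino acid synthesis genes 15 of 64 fell and 5 rose; the falls numbered 5 without the 90 min library and 6 without that of 105 or 165 min, the rises 3 without the 90 min, 9 without the 150 min and 2 without the 105 or 165 min library. LEU9, an enzyme of leucine synthesis, fell 3.03-fold. Of iron genes 3 of 20 fell, near the share of all genes, and 1 rose. The rise was that of CTH1, a call lost whichever of the 6 libraries was left out, and 1 fall was called without the library of 105, 165 or 180 min. FTR1, the iron permease, fell 1.65-fold. Of zinc genes 3 of 13 fell, 0 without the library of 90 or 105 min and 1 without that of 165 min or with that of 225 min added. Redox enzyme genes rose in 16 of 33 cases, 9 without the 105 min and 8 without the 165 min library. Ergosterol genes gave 2 rises of 27 and phospholipid genes 3 rises and 1 fall of 29, shares below those of all genes. Without the 150 min library 3 ergosterol and 4 phospholipid genes were called lower, and centring gave 1 rise and 3 falls of ergosterol genes. The ergosterol rises numbered 0 without the 105 min library and 1 without that of 120 or 165 min. The phospholipid fall was not called without the library of 90, 105, 120 or 165 min.

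The library at 135 min, outside the comparison, divides the interval between the windows. For the genes called higher the median step was 0.15 from 120 to 135 min and 0.53 from 135 to 150 min, and for those called lower -0.11 and -0.94. That both steps together go the way of the call follows from how these genes were chosen, so the steps are given as a description. Over all genes the medians of these steps were 0.039 and 0.002. At 135 min 40.1% of genes called higher were still within their earlier range and 45.3% between the 2 ranges, and of genes called lower 48.7% and 40.8%. The 225 min library, likewise outside the comparison, was within or past the later range for 384 and 198 of 784 genes called higher and for 273 and 150 of 659 called lower. The shallow libraries labelled 195 and 210 min stood elsewhere: ribosomal protein genes took 25% and 23.7% of their listed reads, against 3.38% at 225 min, and RPL7B was at 320 and 353 CPM, within its range of 90 to 120 min.

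Within the later window the lists of the ribosome parted. At 180 min 86 of 92 ribosome biogenesis genes and 12 of 14 RNA polymerase I genes were higher than at 150 min, with median steps of 0.77 and 0.78, whereas 124 of 136 ribosomal protein genes were lower, with a median of -0.88. At 225 min the median difference from the earlier window was -1.30 for ribosome biogenesis genes and -2.60 for ribosomal protein genes. These are differences between single libraries of unequal depth and carry no test.

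**Figure D5:**
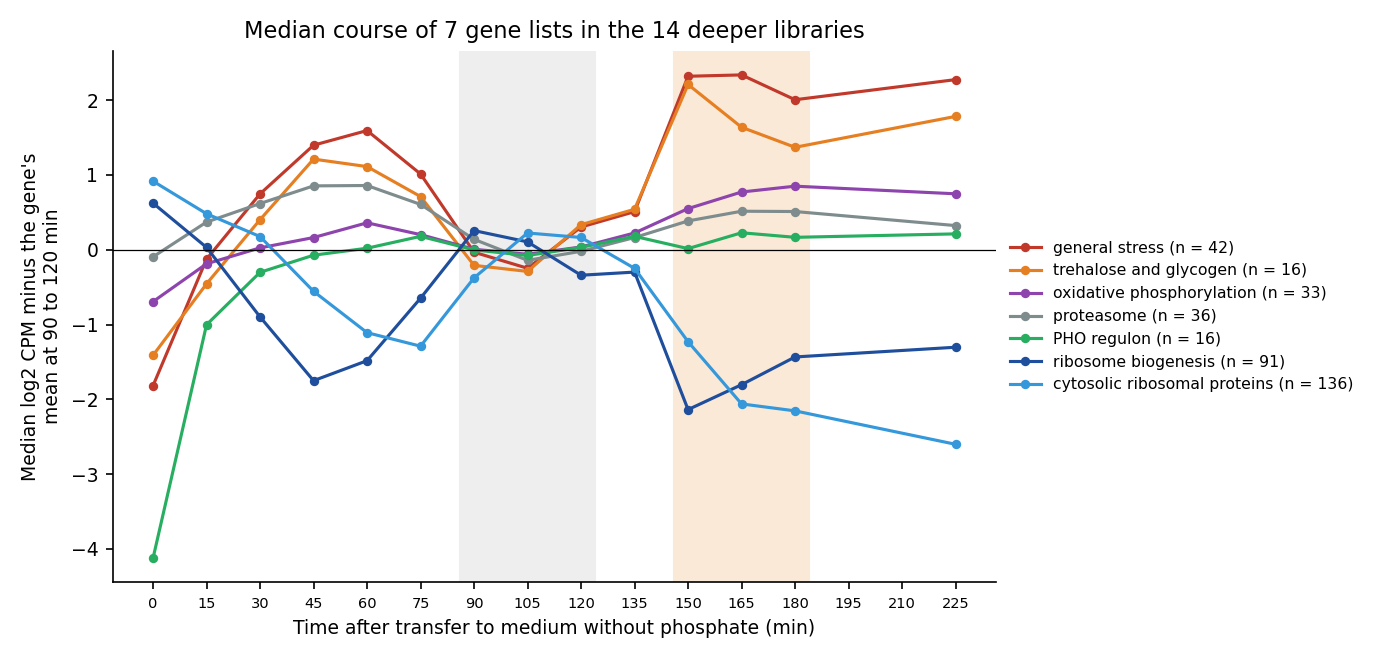
Median over the genes of 7 lists of log2 CPM minus the gene's mean at 90 to 120 min (vertical axis) against time (min), in the 14 deeper libraries, with the earlier window shaded grey and the later one orange. General stress stands at 1.59 at 60 min and at 2.32 at 150 min, ribosome biogenesis at -1.75 at 45 min and at -2.14 at 150 min, and the PHO regulon stays between -0.08 and 0.23 from 90 to 225 min.

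The stress, reserve and ribosome lists had also stood apart from the 90 to 120 min level at 45, 60 and 75 min. The later window was therefore also compared with 45 to 75 min, a comparison chosen after seeing the data that shares its 3 later libraries with the one above. Of 4831 genes with values in both, 50 were higher (1.03%) and 23 lower (0.476%) at 150 to 180 min by limma. General stress genes were higher in 13 of 44 cases with a median of 0.90 and trehalose and glycogen genes in 5 of 19, while ribosome biogenesis genes gave 0 calls of 91 (median -0.43). All 136 ribosomal protein genes were lower than at 45 to 75 min, with a median of -0.80 and a range of -1.342 to -0.155. The 2 called lower were RPL3 and RPL4B.

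Among genes called, HPF1 stood furthest above 45 to 75 min. It was 9.2-fold higher (log2 3.20 ± 0.22, limma adjusted p = 2.22e-05), YMR175W-A 6.35-fold, YNR034W-A 6.11-fold, SIP18 5.64-fold, HXT5 4.36-fold, HSP26 4.27-fold and HXT7 4.21-fold. HXT5 and HXT7 are hexose transporter genes. Of the cell wall mannoprotein list 1 of 19 genes was higher and 1 lower, with a median of 0.039. Sulphur genes were lower in 7 of 34 cases. SAM2, the other S-adenosylmethionine synthetase gene, differed by -1.45 ± 0.20 (limma adjusted p = 0.00558) and CYS3, the enzyme that forms cysteine, by -1.38 ± 0.28 (limma adjusted p = 0.0312). Proteasome genes were called in 0 of 36 cases, with a median of -0.26.

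Some genes could not be tested because they were listed on a single side. In all, 747 genes had a value in some but not all of the 6 libraries and 1038 in none. Of these, 11 were listed in the 3 later and in no earlier library, and 15 in the 3 earlier and in no later one. In 6 of the 11 the lowest value lay above the lowest listed level of every earlier library, among them AGP2, a plasma membrane regulator of transport, at 14, 17 and 23.5 CPM, and POT1, the peroxisomal thiolase of fatty acid breakdown, at 9.49, 12 and 13 CPM. In the opposite direction this held for 4 of 15, including TSR1 and DHR2, both of ribosome assembly, at 38.1, 27.1 and 13.5 CPM and at 33.3, 19.8 and 13.5 CPM in the earlier libraries. Genes under the lowest listed level may be absent or merely low.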

How the data were processed

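RNA of 16 libraries was sequenced as cDNA on an Illumina HiSeq instrument per the labels' protocols. The submitters' processing notes name Bowtie, without a version, and build R64; the counter, the annotation and how reads with more than 1 match were handled are not given in the sources used here. The deposited table holds log2 values. From the values these are log2 CPM, since each library raised back sums to 999855 to 1000000, although the series text speaks of ratios to the 0 min library. Taking the lowest listed value of a library as 10 reads made low values whole reads for 94.5% to 97.4% of genes in the 6 libraries (tolerance 0.01 reads), and depths were recovered from this step. They cover the listed genes alone.

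Genes with a value in all 6 libraries were tested with limma 3.58.1 (R 4.3.3; lmFit, eBayes with a mean-variance trend, two-sided, Benjamini-Hochberg over 4863 genes) and called at an adjusted p under 0.05; no pseudocount was used. The windows, the 42 gene lists and the tests were chosen with earlier results of these data known, so that counts per list are descriptions and received no test. Named genes were the 12 largest rises and falls whose windows did not overlap, up to 3 called genes per direction of each list (up to 2 without overlap where none was called) and 10 phosphate genes, 160 in all. Other genes in the text were named after their values were seen. Names matched R64 for 5482 of 5713 listed genes, which gave coordinates and promoters, the 300 bases before the start codon. The alternatives tried were centring, quantile normalization, a pseudocount of 5, filters, variance models, a time covariate, thresholds and leaving out each library.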

Additional observations from a re-analysis of the deposited data

How the results depend on the processing

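The number of genes called higher lay between 700 and 826 and that called lower between 619 and 731 under both other scalings, the pseudocount, the filter on low values, missing values set to the floor, the variance models and time as a covariate. Leaving out 1 library at a time gave 449 to 1020 called higher and 481 to 706 called lower. With the 135 min library added to the earlier side, or the 225 min library to the later side, both chosen after seeing the data, the counts were 821 and 681, and 838 and 657. Requiring a difference of at least 1 (log2) as well left 357 higher and 435 lower; an adjusted p under 0.01 left 433 higher. Windows that did not overlap by at least 0.5 were found in 924 genes higher and 727 lower, and by at least 2 in 66 and 95. Centring moved the median over all genes to 0.05.

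Of the 148 named genes called, 101 kept the call in every refit. Over the refits that left out a library, general stress gave 42 to 43 rises, ribosomal proteins 129 to 134 falls and ribosome biogenesis 81 to 88 falls, whereas oxidative phosphorylation had 13 to 26 rises and mitochondrial ribosomal proteins 1 to 23. No paired analysis was possible, since 1 culture with 1 library per time point leaves no replicates to pair. Depth limited low genes: at 180 min a gene under 13 CPM has no value.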
